A study of Mus musculus with 12 samples.

Results

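The genes described here are 9 genes of cerebellar granule neurons: the zinc finger transcription factor genes Zic1, Zic2, Zic4 and Zic5, and Neurod1, Fat2, Etv1, Pax6 and Barhl1. They were chosen by name, and every probe that carried 1 of these names on the array was taken, which gave 14 probes for the 9 genes out of 27398 gene names and 41174 distinct probes. Each gene was compared between cerebellum and entire hippocampus, and in either tissue between mice without and with functional En2. RNA was hybridised to 12 one-colour Agilent arrays, 3 for each of 4 groups: cerebellum and hippocampus of mice labelled En2WT, called WT here, and the same tissues of mice labelled En2KO, called En2-/- here.

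The En2-/- mice were homozygous for an allele without the homeobox of engrailed-2, a transcription factor gene that patterns the midbrain and hindbrain. WT mice were their littermates from matings of heterozygotes, of either sex and 3 to 5 months old. The line came from a mixed 129Sv x C57BL/6 and outbred background and had been crossed into C57BL/6 at least 5 times, so alleles of the original background may remain around En2. The mutation was present in all cells and throughout development. The methods name 3 mice of each genotype for both tissues, but the labels do not tie the hippocampus and the cerebellum of one number to one mouse, and the tissues were compared as separate samples.

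Granule neurons are the small excitatory neurons that fill the inner layer of the cerebellar cortex and send parallel fibres to Purkinje cells. Their precursors leave the rhombic lip under the basic helix-loop-helix factor Atoh1, divide in the external layer of the young cerebellum, and then migrate inwards. Zic genes are expressed in these precursors and remain on in adult granule neurons, and they also mark parts of the dorsal midline, the septum and the thalamus.

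Zic1 and Zic4 lie next to each other and point away from each other on chromosome 9. In RefSeq (GRCm38.p6) their transcription starts are 3204 bases apart. The 250 bases before each start are shown because Zic1 and probe 1 of Zic4, though not its probe 2, had higher mean values in the En2-/- hippocampus, as described further on, and capitals mark the letters GGGTGG, the core of a known Zic binding motif, on either strand.
Zic1, chr9:91365769-91366018, minus strand: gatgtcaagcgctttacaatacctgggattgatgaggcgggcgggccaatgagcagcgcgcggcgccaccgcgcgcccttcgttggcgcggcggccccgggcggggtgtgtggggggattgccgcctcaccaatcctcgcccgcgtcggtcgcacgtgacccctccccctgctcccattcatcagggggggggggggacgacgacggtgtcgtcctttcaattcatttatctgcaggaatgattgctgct
Zic4, chr9:91368722-91368971, plus strand: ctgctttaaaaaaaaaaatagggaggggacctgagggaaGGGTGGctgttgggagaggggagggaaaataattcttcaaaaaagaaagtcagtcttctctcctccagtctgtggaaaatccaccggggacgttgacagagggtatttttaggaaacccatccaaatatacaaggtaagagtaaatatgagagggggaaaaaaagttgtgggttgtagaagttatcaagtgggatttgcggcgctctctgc
The 2 windows were unlike in composition. With the 50 bases after the start included, the Zic1 promoter was 65.3% G and C with 31 CpG dinucleotides and the Zic4 promoter 46.0% with 8, against medians of 52.7% and 7 over 32851 promoters of 300 bases. GGGTGG was found in the Zic4 window and not in the Zic1 window. It was in 3 of the 11 promoters listed for 8 of the 9 genes, against 31.5% of all promoters. The homeodomain core TAATTA, the kind of site that engrailed proteins bind, was in neither window and in 1 of these 11 promoters, against 5.29% of all promoters. The E-box CAGATG, which Neurod1 can bind, was in 1 of these 11 and in 17.2% of all. Both strands were searched for each motif.

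Both Zic1 probes read almost the same place of the transcript (mm9 chr9:91255445-91255504 and chr9:91255425-91255484, minus strand) and shared 40 bases, so they are not independent measurements. The middle of the shared stretch is shown first, followed by the middle of each Zic4 probe (probe 1 at mm9 chr9:91283991-91284050 and probe 2 at chr9:91273565-91273624, plus strand), because the Zic4 probes gave different patterns.
Zic1 probes 1 and 2: catgtaaagggtctggtttattcatgttac
Zic4 probe 1: tgttgtgtatatttgtcagtggttgttgaa
Zic4 probe 2: ccacgccaccgcttctcatgcacgttattt
The position of a probe in exons was not determined, since no annotation of the mm9 build was used.

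Values are quantile normalized log2 intensities, on which a difference of 1 is a 2-fold difference, and a level is not comparable between different probes. Between 62.3% and 73.0% of spots per array were well above background and none was saturated. A granule neuron list beside the members checked the tissue label: Gabra6, a GABA receptor subunit of mature granule neurons, lay between 14.68 and 14.99 in the 6 cerebellum arrays and between 1.97 and 5.88 in the 6 hippocampus arrays. Neurod6, a gene of hippocampal pyramidal neurons, lay between 7.05 and 7.95 in the cerebellum and between 12.54 and 13.41 in the hippocampus. The En2 probe lies outside the deleted homeobox and therefore did not check the genotype labels (difference in the cerebellum 0.31, SE 0.32, adjusted p = 0.861). The images of the 2 tissues were extracted on different days, 1 for each tissue, so a difference between tissues and one between extraction runs cannot be told apart. The slide, which held 1 array of each group, was not confounded with tissue or genotype.

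All 9 genes had a probe with a higher level in the cerebellum than in the hippocampus, in WT and in En2-/- mice. In each genotype 13 of the 14 probes could be tested and 12 were called higher in the cerebellum by limma at an adjusted p under 0.05, where 14.4% of all probes tested were called higher in WT and 12.5% in En2-/- mice. The probes of Zic5 and Fat2 and probe 2 of Barhl1 passed the filter on dim probes through the cerebellum alone, so that a difference was built into their test. Of the 10 probes well above background on every array of both tissues in WT, 9 were called. In whole tissue, fewer cells of a type and less RNA per cell cannot be told apart.

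**Figure D1:**
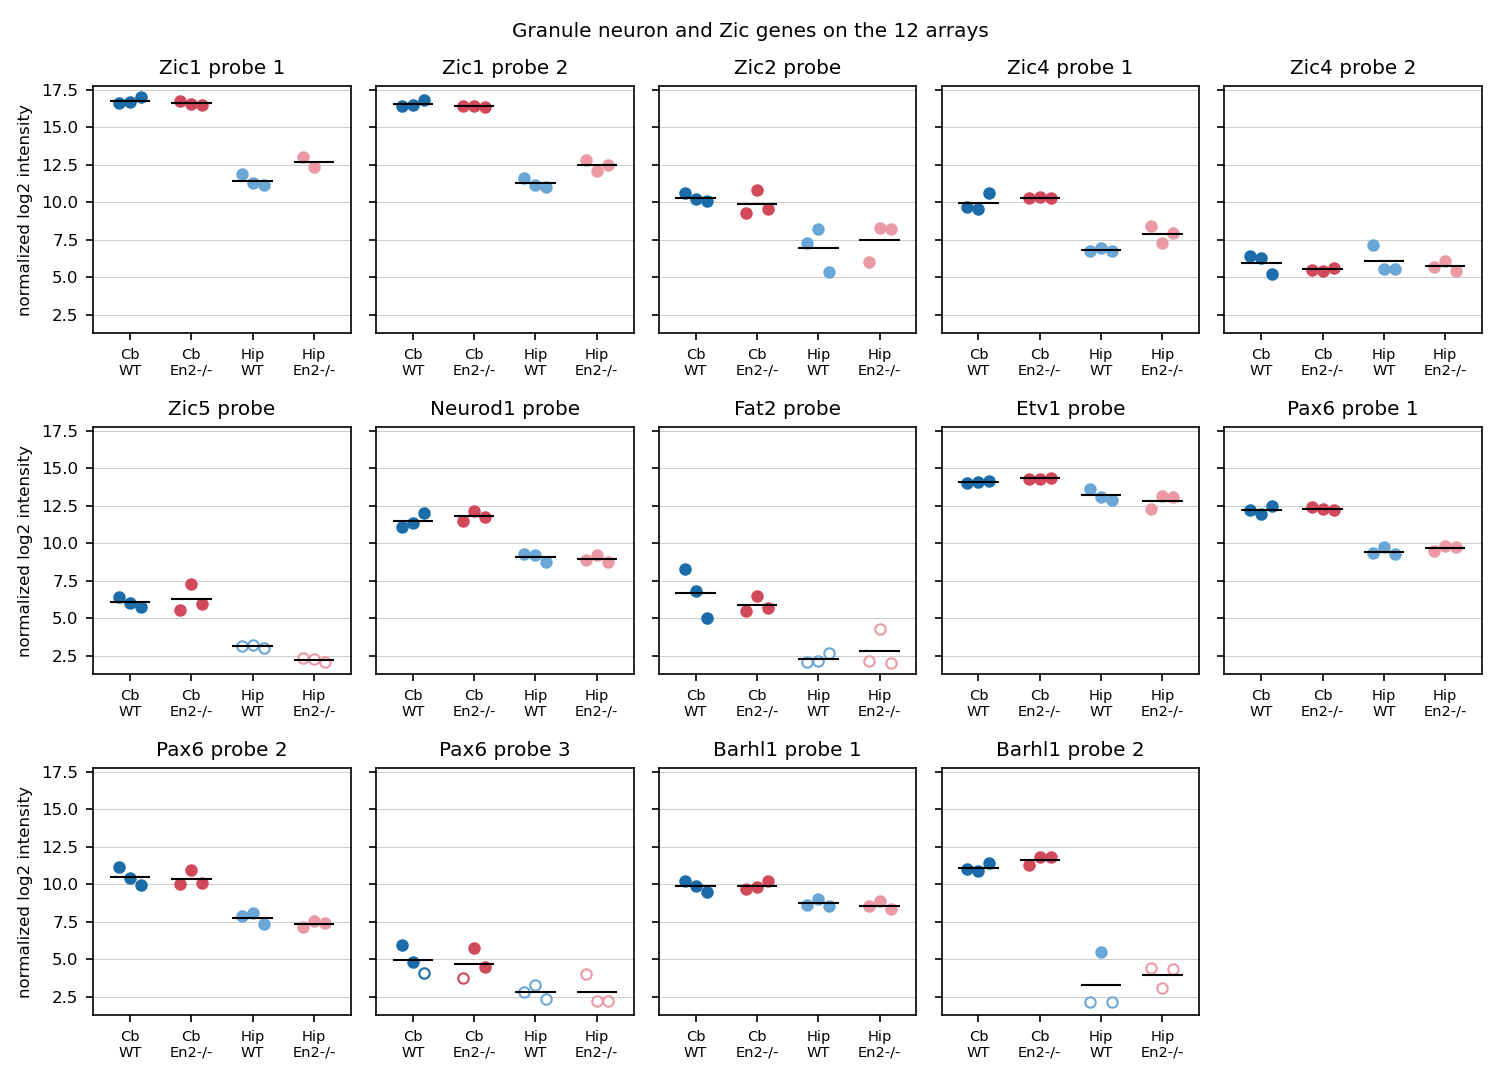
Normalized log2 intensity of each of the 14 probes (vertical axis) on the 12 arrays, grouped as cerebellum (Cb) and hippocampus (Hip) of WT and En2-/- mice. Points are arrays, from replicate 1 on the left to replicate 3 on the right, open points were not well above background, and bars are group means. Zic4 probe 2 is the probe with similar levels in both tissues, and Zic1 lies higher in the En2-/- than in the WT hippocampus.

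Zic1, which holds granule neuron precursors in division and remains on in the mature neuron, had the largest measured difference of the Zic genes in WT. Its probe 2 read 16.41, 16.49 and 16.80 in the WT cerebellum and 11.64, 11.15 and 11.02 in the WT hippocampus. In En2-/- mice the cerebellum read 16.41, 16.44 and 16.37, and the hippocampus 12.83, 12.10 and 12.49. The tissues did not overlap in either genotype, and the hippocampus of both genotypes was well above background on every array. The difference was 5.29 in WT (39.2-fold, SE 0.23, adjusted p = 2.2e-08) and 3.93 in En2-/- mice (15.3-fold, SE 0.23, adjusted p = 3.01e-07). Probe 1 gave 5.33 and 3.93.

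Zic4, the neighbour of Zic1, depended on the probe. Probe 1 read 9.71, 9.58 and 10.61 in the WT cerebellum and 6.76, 6.98 and 6.77 in the WT hippocampus, a difference of 3.13 (8.76-fold, SE 0.31, adjusted p = 1.42e-05). In En2-/- mice the difference was 2.43 (adjusted p = 0.000132). Probe 2 was dim and did not separate the tissues: it read between 5.21 and 6.39 in the 6 cerebellum arrays and between 5.41 and 7.14 in the 6 hippocampus arrays. Its difference was -0.14 in WT (95% interval -1.06 to 0.78) and -0.21 in En2-/- mice. It was the only tested probe of the 13 that was not called.

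Zic2 and Zic5 are a second neighbouring pair, on chromosome 14. Zic2, known for its part in closing the neural tube and in dividing the forebrain, read 10.62, 10.23 and 10.10 in the WT cerebellum and 7.27, 8.21 and 5.36 in the WT hippocampus, a difference of 3.37 (SE 0.73, adjusted p = 0.00494). The hippocampus arrays spread widely, and the tissues did not overlap. In En2-/- mice the difference was 2.34 (adjusted p = 0.0368). This En2-/- call was lost without En2-/- cerebellum replicate 2 (1.88, adjusted p = 0.127), En2-/- cerebellum replicate 3 (2.51, 0.0696), WT cerebellum replicate 2 (2.34, 0.0504) or En2-/- hippocampus replicate 1 (1.59, 0.125).

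Zic5 read 6.45, 6.03 and 5.78 in the WT cerebellum and was not well above background on any of the 6 hippocampus arrays. The cerebellum was at least 3.15-fold higher in WT and at least 2.92-fold higher in En2-/- mice. These bounds set the mean of the cerebellum against the lowest signal that still counted as well above background on each hippocampus array. Such bounds, here and below, hold for the background correction of the main fit and leave out the spread of the cerebellum arrays.

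Neurod1, a basic helix-loop-helix factor needed for granule neurons of both the cerebellum and the dentate gyrus, was present in both tissues. It read 11.11, 11.34 and 12.04 in the WT cerebellum and 9.30, 9.25 and 8.73 in the WT hippocampus. The difference was 2.40 in WT (5.29-fold, SE 0.28, adjusted p = 5.72e-05) and 2.83 in En2-/- mice (7.09-fold, adjusted p = 2.01e-05). The tissues did not overlap.

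Pax6 and Barhl1 encode homeodomain factors of the granule lineage; Pax6 guides migration and parallel fibre growth, and Barhl1 supports migration and survival. Pax6 probe 1 read 12.20, 11.98 and 12.48 in the WT cerebellum and 9.32, 9.75 and 9.28 in the WT hippocampus, a difference of 2.77 (SE 0.20, adjusted p = 1.16e-06). Probe 2, which was spotted 10 times, gave a close value of 2.73 (SE 0.34), and in En2-/- mice the 2 probes gave 2.61 and 2.97. Probe 3 was well above background on 2 of 3 cerebellum arrays of each genotype and on no hippocampus array, and was not tested.

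Barhl1 had the widest gap between its probes. Probe 2 read 11.02, 10.91 and 11.40 in the WT cerebellum and 2.17, 5.49 and 2.17 in the WT hippocampus, where 1 of 3 arrays was well above background. The array above background, replicate 2, was still below every cerebellum array, and in En2-/- mice, where no hippocampus array was well above background, the cerebellum was at least 122-fold higher. Probe 1 read 10.21, 9.86 and 9.50 in the WT cerebellum against 8.63, 8.99 and 8.55 in the WT hippocampus, a difference of 1.13 (2.20-fold, SE 0.24, adjusted p = 0.00404) in WT and of 1.35 in En2-/- mice. The 2 probes lie next to each other (mm9 chr2:28763200-28763239 and chr2:28763253-28763312, minus strand). They agreed in direction and not in size.

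Etv1, an ETS factor that is switched on as granule neurons mature, had the smallest difference of the called probes in WT. It read 14.04, 14.06 and 14.16 in the WT cerebellum and 13.60, 13.10 and 12.90 in the WT hippocampus (difference 0.89, 1.85-fold, SE 0.25, adjusted p = 0.0208). In En2-/- mice the difference was 1.49 (adjusted p = 0.0011). The WT call was lost without WT cerebellum replicate 2 (0.90, adjusted p = 0.0519), WT cerebellum replicate 3 (0.85, 0.0502), WT hippocampus replicate 2 (0.84, 0.0643) or WT hippocampus replicate 3 (0.74, 0.0732).

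Fat2, a giant cadherin on parallel fibres, read 8.26, 6.83 and 5.02 in the WT cerebellum and 5.51, 6.48 and 5.68 in the En2-/- cerebellum. No hippocampus array was well above background, and the cerebellum was at least 4.83-fold higher in WT and at least 2.27-fold higher in En2-/- mice. The WT cerebellum arrays differed by more than those of any other member, and leaving out 1 array moved the fitted WT difference between 3.62 and 5.24 on the log2 scale. With normexp, another background correction, which adds an offset, the Fat2 difference was 1.41 in WT and 0.77 in En2-/- mice, and the second was not called (adjusted p = 0.121). The fitted differences of the other probes that were dim in the hippocampus also moved under normexp, to 0.85 in WT and 1.08 in En2-/- mice for Zic5 and to 4.74 and 5.33 for Barhl1 probe 2. Wherever a bound was given for these probes, the normexp difference was smaller than the bound.

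**Figure D2:**
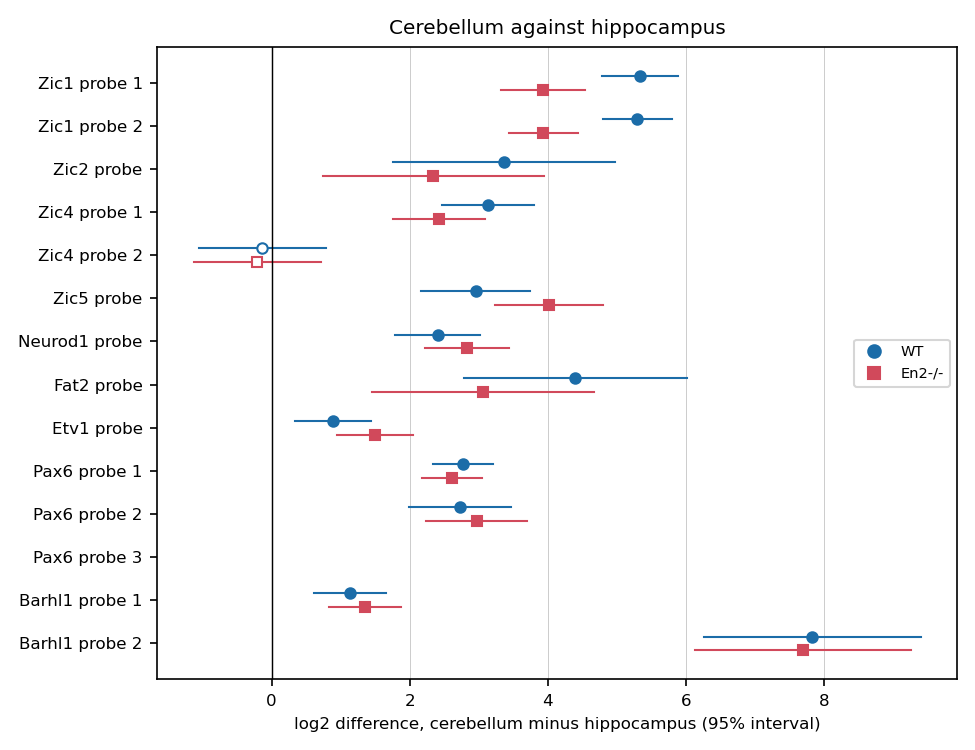
Difference between cerebellum and hippocampus on the log2 scale (horizontal axis) for each probe, in WT (circles) and En2-/- mice (squares); lines are 95% intervals of the limma fit and filled symbols were called. All tested probes except Zic4 probe 2 lie to the right of 0, and Zic1 lies at 5.29 to 5.33 in WT and at 3.93 in En2-/- mice.

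The other genes of granule neurons did not all follow the members. Of 24 further genes known in the lineage, from precursors to mature neurons, 21 were tested in WT; 11 were called higher and 6 lower in the cerebellum, with a median of 0.78, where 14.4% of all probes were called higher and 13.3% lower. The largest differences in WT were those of mature granule neuron genes. Gabra6 was at least 1291-fold higher in the cerebellum, and Cbln3, a partner of cerebellin-1, at least 149-fold. Cbln1, the synaptic organiser that granule neurons release onto Purkinje cells, was higher by 7.25 (SE 0.31), and Grm4, a presynaptic glutamate receptor, was at least 17.8-fold higher. Atoh1, the precursor factor, was not tested in either tissue: it read between 2.12 and 2.52 on all 12 arrays. Slc17a7, a vesicular glutamate transporter gene that hippocampal neurons share, was lower in the cerebellum (difference -3.23, adjusted p = 0.000383).

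Relatives of the members were split between the tissues. Of 10 genes of the same families, 9 were tested in WT, 3 were called higher and 4 lower in the cerebellum, with a median of -0.74, against the same shares over all probes. Neurod6 had the largest difference of these, at -5.79 (adjusted p = 2.2e-08), against 2.40 for Neurod1. Fat4 was lower in the cerebellum (-2.60) and Fat1 higher (2.31).

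In the cerebellum no member was called between En2-/- and WT mice. All 9 genes were tested with 13 probes, and 0 were called by limma and 0 had an unadjusted p under 0.05, where 0.941% of all probes tested were called in either direction and 2608 of 27415 had an unadjusted p under 0.05. The differences ran from -0.82 for Fat2 to 0.54 for Barhl1 probe 2, with 7 probes higher and 6 lower in En2-/- mice and a median of 0.06.

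The intervals set how far this goes. For Zic1 probe 2 the difference was -0.16 with a 95% interval from -0.66 to 0.34, and for Pax6 probe 1 it was 0.08 (-0.35 to 0.51). For Neurod1 it was 0.30 (-0.31 to 0.91). Intervals were wide for Zic2 (-2.05 to 1.15) and Fat2 (-2.43 to 0.80), which do not exclude a 2-fold decrease in En2-/- mice. Nor did those of Barhl1 probe 2 (-1.03 to 2.11) and Zic4 probe 2 (-1.35 to 0.49). A 2-fold increase was not excluded for Zic2, Barhl1 probe 2 or Zic4 probe 1 (-0.32 to 1.01).

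Etv1 was the only probe whose cerebellum groups did not overlap: the En2-/- arrays read 14.28, 14.31 and 14.38, all above the WT arrays. The difference of 0.24 (SE 0.25) was not called (adjusted p = 0.863), and 13.8% of all probes tested had groups without overlap. With the rank product, the method the study's own analysis used, and its limit of 0.01 on the unadjusted P, Fat2 was called lower in the En2-/- cerebellum (permutation P = 0.00658), where 2.4% of all probes were called lower. The Fat2 groups overlapped, and the differences on the 3 slides were -2.75, -0.35 and 0.66.

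**Figure D3:**
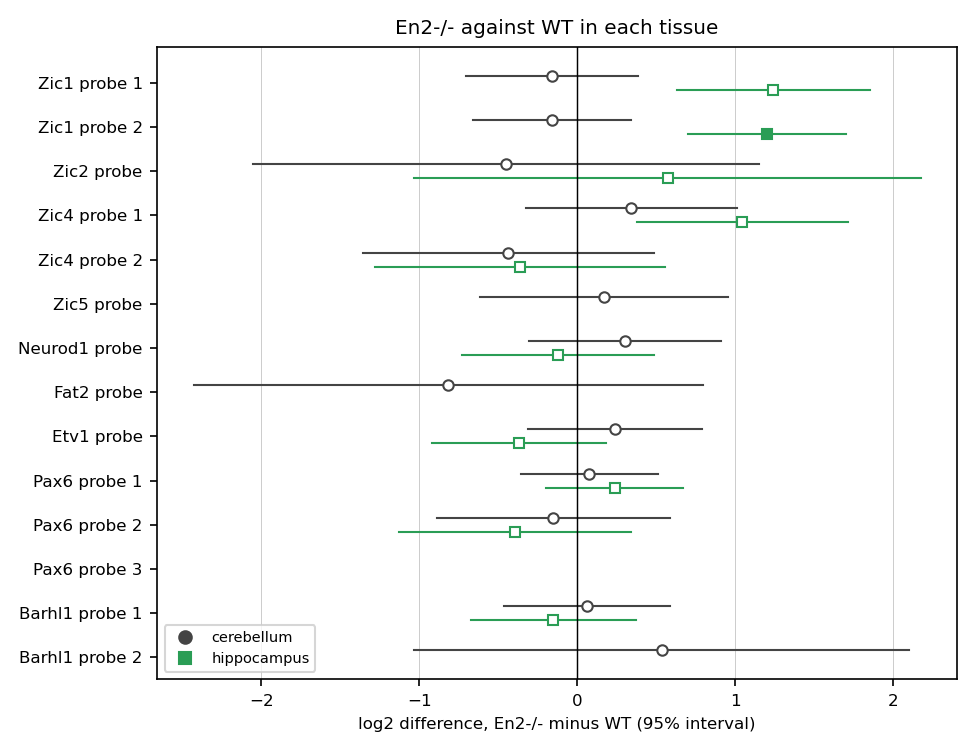
Difference between En2-/- and WT mice on the log2 scale (horizontal axis) for each tested probe, in the cerebellum (circles) and the hippocampus (squares); lines are 95% intervals of the limma fit and the filled symbol was called. Intervals of the Zic1 probes and of Zic4 probe 1 lie above 0 in the hippocampus, at 1.24, 1.20 and 1.05, and every other interval spans 0.

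In the hippocampus 1 member was called: Zic1 was higher in En2-/- mice. The groups of probe 2 did not overlap, since the lowest En2-/- array (12.10) was above the highest WT array (11.64). The difference was 1.20 (2.30-fold, SE 0.23, 95% interval 0.70 to 1.70, limma adjusted p = 0.0266), and within the 3 slides it was 1.19, 0.95 and 1.47. This level remained 3.93 below that of the En2-/- cerebellum.

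Zic1 probe 1 read 11.87, 11.30 and 11.13 in the WT hippocampus and 13.00 and 12.36 in the En2-/- hippocampus, where the value of replicate 3 was left out for an outlier flag. The groups did not overlap, and the difference of 1.24 (SE 0.28) was not called (adjusted p = 0.0682). With flagged spots kept, a setting chosen after the data were seen, it was 1.19 and was called (adjusted p = 0.0354).

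Zic4 probe 1 read 6.76, 6.98 and 6.77 in the WT hippocampus and 8.41, 7.30 and 7.93 in the En2-/- hippocampus. All 3 En2-/- arrays were above all 3 WT arrays, and replicate 2 was the lowest of the En2-/- arrays for Zic1 as well. The difference of 1.05 (2.07-fold, SE 0.31, 95% interval 0.38 to 1.71) was not called (adjusted p = 0.147). Zic4 probe 2 gave -0.36 (-1.28 to 0.56), so the 2 Zic4 probes differed in sign.

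These were 1 called probe, where 0.612% of all probes tested were called higher, and 3 probes without overlap, where 27.9% of all probes tested had none. Of the 14 member probes, 10 could be tested in the hippocampus, for 7 genes, and 3 had an unadjusted p under 0.05, as did 4043 of 25665 probes in all. With the rank product and the study's limit of 0.005, both Zic1 probes (permutation P = 0.00117 and 0.00147) and Zic4 probe 1 (permutation P = 0.00376) were called higher, where 1.95% of all probes were. For this method, the missing En2-/- replicate 3 value of Zic1 probe 1 was filled with the mean of the other En2-/- hippocampus arrays.

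The Zic1 call depended on single arrays. Probe 2 was no longer called without En2-/- hippocampus replicate 1 (1.03, adjusted p = 0.0855), En2-/- hippocampus replicate 3 (1.20, 0.108), WT hippocampus replicate 2 (1.15, 0.0962), WT hippocampus replicate 3 (1.08, 0.0952) or En2-/- cerebellum replicate 3 (1.20, 0.0507), which enters through the shared estimate of the spread. Its direction was the same in all 22 alternative limma settings, with values between 1.03 and 1.39.

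The other members in the hippocampus were not called. Zic2 read 7.27, 8.21 and 5.36 in WT and 6.02, 8.32 and 8.22 in En2-/- mice (difference 0.57, 95% interval -1.03 to 2.18), so that its spread was larger than the Zic1 difference. Neurod1 differed by -0.12 (-0.73 to 0.49), Etv1 by -0.37 (-0.92 to 0.18), Pax6 probe 1 by 0.24 (-0.19 to 0.67) and Barhl1 probe 1 by -0.15 (-0.67 to 0.37). Zic5 and Fat2 were below background in both genotypes, so no genotype difference was measured for them.

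Some markers of neighbouring tissue were also higher in the En2-/- hippocampus. Of 12 genes listed for the thalamus, which lies under the hippocampus and expresses Zic genes in part, all were well above background in WT and tested, 9 were higher on average in En2-/- mice and 2 were called, where 0.612% of all probes were called higher, with a median difference of 0.82 against 0.02 over all probes. The mean of the list, relative to the WT mean, was 0.73, 0.53 and 0.96 on the En2-/- arrays and 0.09, 0.08 and -0.17 on the WT arrays. The groups did not overlap, and replicate 2 was the lowest of the En2-/- arrays here too. The highest En2-/- array of the list was replicate 3, whereas for Zic1 probe 2 it was replicate 1. Of the 12 genes, 7 had groups without overlap, as did 27.9% of all probes. The list was chosen with earlier results of these data known, so these counts are a description and not an independent test.

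The called thalamic genes were Synpo2, which encodes an actin-binding protein (9.03, 9.07 and 9.54 in WT, 12.18, 10.78 and 11.85 in En2-/- mice; difference 2.39, adjusted p = 0.00226), and Rgs16, a regulator of G protein signalling (9.69, 9.50 and 9.44 in WT, 11.03, 10.37 and 10.87 in En2-/- mice; difference 1.21, adjusted p = 0.0124). Tcf7l2, a defining factor of thalamic neurons, lay between 9.73 and 10.69 in WT and between 11.15 and 11.72 in En2-/- mice (1.39, adjusted p = 0.0565). None of these 3 was at background in the WT hippocampus. Cplx1, Vav3 and Calb2 of the same list, the last of which is also on the granule neuron list, had lower means in En2-/- mice (-0.41, -0.35 and -0.16).

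Of 9 medial habenula genes, 6 were tested, 4 higher and 2 lower on average in En2-/- mice, with a median of 0.19. Only Irx1 was called (6.07, 5.96 and 6.70 in WT, 8.24, 7.84 and 8.48 in En2-/- mice; difference 1.94, adjusted p = 0.00141), where 0.612% of all probes were called higher. The list lay at -0.12, 0.37 and 0.56 on the En2-/- arrays and between -0.07 and 0.07 in WT. The genotypes overlapped, and its lowest En2-/- array, replicate 1, was the highest for Zic1. Of the habenula's own cholinergic receptor genes, Chrnb4 and Chrna3 were not well above background on any WT array. No gene was called among the 10 other lists of brain cell types and neighbouring tissues, and the choroid plexus list had the lowest of their medians (-0.52, with the En2-/- arrays at 1.31, -2.77 and -0.42). The En2-/- array highest for the choroid plexus list, replicate 1, was also the highest for Zic1, and the lowest, replicate 2, was also the lowest for Zic1, while choroid plexus values of the 2 genotypes overlapped and those of Zic1 did not. Meninges, whose cells also express Zic genes, had a list median of 0.24, with the En2-/- arrays at 0.72, -0.66 and 0.39 and the WT arrays at -0.02, -0.36 and 0.38. The genotypes overlapped in the meninges list, and its highest and lowest En2-/- arrays were those of Zic1. Replicate 1 was also the highest and replicate 2 the lowest En2-/- array in the oligodendrocyte list (0.32, -0.33 and -0.22). The same held for the astrocyte and Bergmann glia list (-0.07, -0.22 and -0.18) and the microglia list, but not for the dentate granule or pyramidal lists. An order of 3 arrays does not by itself tie a list to Zic1. The septum list, of 5 tested genes, lay at 0.10, 0.37 and 0.33 on the En2-/- arrays and between -0.02 and 0.02 in WT, and the Purkinje list, of 13, at 0.29, 0.08 and 0.19 against -0.13 to 0.08. Neither list overlapped between genotypes, and the Purkinje arrays followed the order of Zic1. The microglia list did not overlap either, at -0.32, -0.47 and -0.43 on the En2-/- arrays against -0.11 to 0.21 in WT. A gene of the Purkinje list is also on the thalamus list, so these lists are not independent. The closest Purkinje arrays were nearly equal, at 0.085 in En2-/- and 0.076 in WT mice. The Purkinje median was 0.003, against 0.02 over all probes, with 7 genes higher and 6 lower on average. Groups did not overlap for 4 of the 13 Purkinje genes, against 27.9% of all probes. The septum median was 0.13, with 3 genes higher and 2 lower. The dentate granule list had a median of -0.32, the pyramidal list one of -0.35 and the microglia list one of -0.45, with 7 of 8 microglia genes without overlap, against 27.9% of all probes. The part of thalamic, choroid plexus, meningeal, septal or other tissue in the Zic1 and Zic4 values was not tested. Among the 24 granule neuron genes none was called in this comparison (18 tested, 5 higher and 13 lower on average), and Cbln1 had the largest positive difference, 1.10 (adjusted p = 0.133). The largest difference of the list was that of Slc17a7, -1.32 (adjusted p = 0.226), whose groups did not overlap either. None of the 10 relatives was called either (8 tested, 4 higher and 4 lower).

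**Figure D4:**
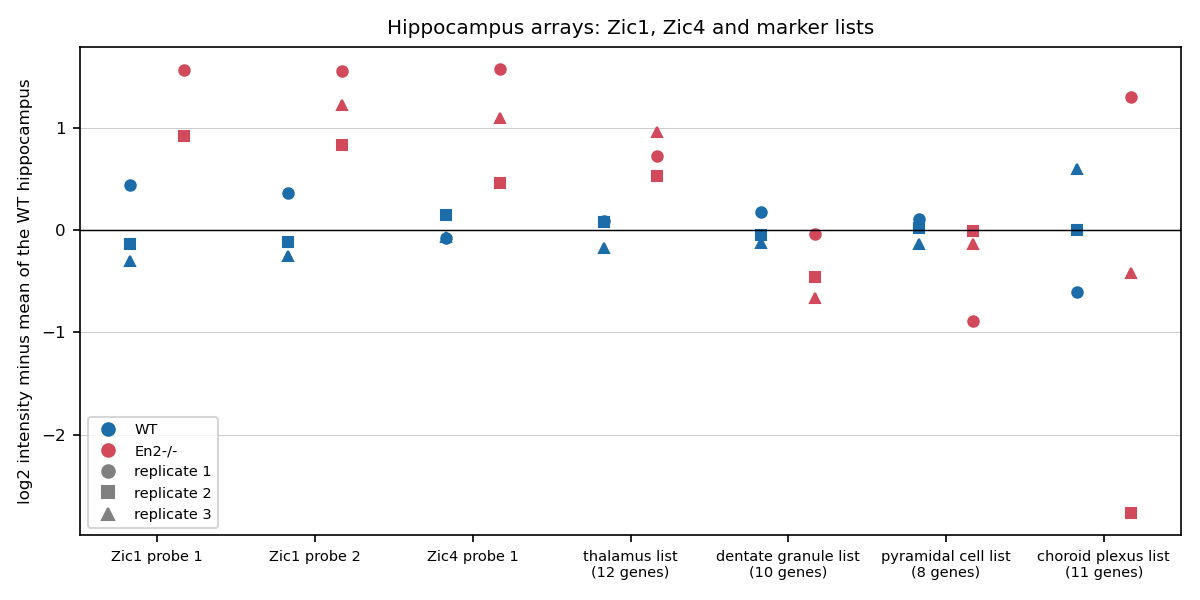
Log2 intensity on each of the 6 hippocampus arrays minus the mean of the WT hippocampus (vertical axis), for the Zic1 probes, Zic4 probe 1 and the mean of 4 marker lists. Colours give the genotype and symbols the replicate. The En2-/- arrays lie above the WT arrays for Zic1, Zic4 probe 1 and the thalamus list (0.53 to 0.96 against -0.17 to 0.09), and the choroid plexus list spreads from -2.77 to 1.31 within the En2-/- group.

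Whether the effect of the mutation differed between tissues was tested directly. The En2-/- minus WT difference of Zic1 was lower in the cerebellum than in the hippocampus by 1.36 at probe 2 (difference of effects -1.36, SE 0.32) and by 1.40 at probe 1 (-1.40, SE 0.37). Neither was called (adjusted p = 0.287 and 0.334), and 0 of the 10 member probes tested were, where 0.0279% of all probes were called by limma. Unadjusted, 2 of the 10 had a p under 0.05, both of Zic1. For Zic4 probe 1 the difference of effects was -0.70 (-1.65 to 0.24) and for Etv1 it was 0.61 (-0.17 to 1.38).

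The genes whose pattern was most like that of Zic1 were found by the root mean square distance of mean-centred log2 profiles from probe 1, over the 11 arrays on which that probe had a value. The 5 nearest of 17800 genes were D17H6S56E-3 (distance 0.27), Foxb1, a forkhead factor (0.34), Akr1b7 (0.38), Mrgprf (0.39) and Ptpn22 (0.40). Of these, D17H6S56E-3 and Akr1b7 were well above background on 0 hippocampus arrays and Foxb1 on 1, so that part of their likeness lies in values near background, and 4 of the 5 were also nearest to probe 2 over 12 arrays. Mrgprf, an orphan receptor gene measured on all 6 hippocampus arrays, was 4.89 higher in the WT cerebellum and differed by 1.59 between genotypes in the hippocampus (adjusted p = 0.0514).

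Within the hippocampus, over the 5 arrays with a value for probe 1, Rgs16 of the thalamus list was among the 5 nearest of 13286 genes (distance 0.17), and it was the nearest to probe 2 over all 6 arrays (0.12). Adamts7 (0.17), a secreted metalloprotease, and Lilrb3 (0.23), an immune receptor, were also among them, and the remaining 2 carried only a sequence identifier as their name. Lilrb3 differed by 1.45 between genotypes (adjusted p = 0.107) and Adamts7 by 1.12 (adjusted p = 0.184). With 5 or 6 arrays, any gene that differs by a similar amount between the genotypes comes close by this measure.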

How the data were processed

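For each array the authors deposited the scanner software's intensity of every spot on a linear scale (Agilent Feature Extraction 10.7.3.1, mm9 annotation per the file headers), already corrected for background. They also deposited a table of log2 values, which the study's methods describe as filtered and quantile normalized; the tissues had been processed separately, and it was used as an alternative.

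From the intensities, log2 values without control spots and outlier flags were quantile normalized over the 12 arrays, and spots of a probe were averaged. Gene names of the cerebellum files were used for both tissues, since 4691 spots were named differently in the hippocampus files. A probe entered a contrast if all 3 arrays of either group read it well above background and both groups had at least 2 values. One limma 3.58.1 fit (R 4.3.3) over the 4 groups gave 5 contrasts, with Benjamini-Hochberg adjustment over all probes tested. Summaries and the rank product, with P from 100 permutations of each array, were computed in Python 3.11.15; numpy (2.4.6), pandas (2.3.3) and matplotlib (3.10.9) were used. The fits were tested on simulated data. Promoter sequences are those of RefSeq (GRCm38.p6).

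The members and gene lists were chosen with earlier results of these data known. All probes of the members are named. In the lists, the brightest probe stands for a gene, and genes called between genotypes, up to 4 with the largest WT difference between tissues, and genes that moved with a member are named; Slc17a7, Atoh1, Cplx1, Vav3 and Calb2 were added after their values were seen. Alternatives changed the scaling, background correction, filter, replicate block, probe choice, fit, test and arrays. The replicates of a group are separate mice. The number of arrays limits the precision. One gene of a list is not reported here by name.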

Additional observations from a re-analysis of the deposited data

How the results depend on the processing

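Where they were tested, the 12 called probes were higher in the cerebellum in every alternative run. Not all of them were tested or called in each run, and the number of member probes called lay between 8 and 13. The hippocampal Zic1 call was less firm. The number of member probes called between genotypes in the hippocampus, 1 in the analysis reported, was 2 with normexp, with a prior variance trend and with outlier-flagged spots kept (chosen after the data were seen), 3 by the rank product, and 0 with 1 probe per gene, where probe 1 stands for Zic1, and with separate fits per tissue. It lay between 0 and 2 with 1 array left out, and in the cerebellum the rank product called 1. Zic1 probe 2 lost its call with the authors' log2 values (1.16, adjusted p = 0.0601) and with separate fits (1.20, 0.0574), and lay between 1.03 and 1.39 with 1 array left out. It was called in 15 of 22 alternatives, with adjusted p from 0.00852 to 0.108. Zic1 probe 1 was called with normexp (1.33, adjusted p = 0.0200), the authors' values (1.20, 0.0485), the variance trend (1.24, 0.0248), flagged spots kept (1.19, 0.0354) and the rank product (1.24), and without WT hippocampus replicate 1 (1.46, 0.0499). It lay between 0.92 and 1.56 with 1 array left out. Zic4 probe 1 was called only by the rank product (1.05), with adjusted p from 0.0707 to 0.382 in 23 limma alternatives. Zic2 between tissues in En2-/- mice was not called without the filter on dim probes (2.34, adjusted p = 0.0716).

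No sign reversed among called values. Zic4 probe 2 between tissues turned to 0.044 in WT with 75th percentile scaling, to 0.29 in WT and 0.30 in En2-/- mice with the authors' values, whose tissues were normalized separately, and to between -0.40 and 0.39 in WT with 1 array left out. Its difference of genotype effects turned to 0.00354 with normexp and 0.011 with the authors' values, and lay between -0.60 and 0.20 with 1 array left out. Pax6 probe 1 between genotypes in the cerebellum turned to -0.00428 with 75th percentile scaling. With 1 array left out, genotype differences in the cerebellum lay between -0.044 and 0.21 for Pax6 probe 1, -0.45 and 0.16 for Pax6 probe 2, -0.34 and 0.52 for Zic5 and -0.12 and 0.24 for Barhl1 probe 1. In the hippocampus they lay between -0.63 and 0.16 for Zic4 probe 2 and -0.22 and 1.32 for Zic2, and the difference of effects of Pax6 probe 2 lay between -0.056 and 0.55. The causes were not tested.

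The replicate number marks the slide. Same-numbered samples correlated between -0.21 and 0.22 in their deviations from group means, and differently numbered samples between -0.28 and 0.32. The numbers were therefore not taken as pairs. Deviations cancel out within a group, so these values do not by themselves settle the pairing. With slide as a replicate block no call changed (Zic1 probe 2 1.20, adjusted p = 0.0388, Zic1 probe 1 1.21, Zic4 probe 1 1.05), and the member counts were 12, 12, 0, 1 and 0. Over all probes, the cerebellum count of 258 became 111 with the authors' values, 153 with separate fits and 1250 by the rank product. The hippocampus count of 294 became 448, 544 and 1101, and 174 with probes well above background in both groups and 184 with 1 probe per gene. With 1 array left out the cerebellum count lay between 182 and 410, the highest without WT cerebellum replicate 3, and the hippocampus count between 162 and 373, with 162 without WT hippocampus replicate 1 and 174 without En2-/- hippocampus replicate 3. The count for the difference of effects, 7, ran from 0 to 30. With 3 arrays per group the intervals given limit what could be seen, and probes near background have bounds only.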
